A study of Mus musculus with 6 samples.

Results

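The cytosolic ribosomal protein genes encode the proteins that, with the ribosomal RNAs, form the large and the small subunit of the ribosome. They were taken from the deposited count table by symbol, as the protein-coding genes named Rpl or Rps with a number, together with the stalk genes Rplp0, Rplp1 and Rplp2 and the small-subunit gene Rpsa. The rule found 83 genes among 55254 gene symbols, of which 43 belonged to the large subunit, 31 to the small subunit, 3 to the stalk and 6 were paralogs named after another member. After a filter on low counts, 80 of the 83 were tested among 11873 genes. Rpl39l held 4, 0 and 0 reads in control and 1, 3 and 0 in M-Δx3,4, and Rpl3l and Rpl10l had 0 reads in every library, so these paralogs were not tested.

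Bone marrow-derived macrophages (BMDMs) were compared between 3 control libraries (hnRNPDfl/fl) and 3 M-Δx3,4 libraries (LysCre+hnRNPDfl/fl), all on the C57BL/6J strain. Both groups carry hnRNPD alleles with loxP sites around exons 3 and 4, and Cre, driven by the lysozyme M locus that is active in myeloid cells, is present in the M-Δx3,4 group only. The gene encodes AUF1, a family of RNA-binding proteins (RBPs) known to bind AU-rich sequences of mRNAs. Marrow came from mice of 6 to 8 weeks, was cultured for 10 days with L929-conditioned medium, and the cells received LPS at 100 ng/ml for 4 hours. RNA was read by QuantSeq, which sequences the 3′ end of polyadenylated RNAs. Nothing in the labels says whether the libraries came from separate mice, so the p-values measure the spread between these libraries.

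Libraries held between 5852374 and 9008878 counts summed over all regions. All 10 macrophage markers listed, among them Adgre1, Csf1r and Cd68, had at least 10 counts in every library, and their summed normalized counts ran from 8548 to 10583 in control and from 8043 to 9963 in M-Δx3,4. The B-cell list had counts for 7 of 7 genes, and its sum was 301 to 358 in control and 143 to 165 in M-Δx3,4. Its part in the results was not tested. The 6 T- and NK-cell markers were at 0 in all libraries. Markers of neutrophils and granulocyte precursors summed to 389 to 695 in control and 482 to 728 in M-Δx3,4. Those of fibroblasts and stroma summed to 2.3 to 48.8 in control and 1.9 to 33.3 in M-Δx3,4. Of 8 tested Hnrnpd transcripts, 7 were lower in every M-Δx3,4 library than in any control library. The transcript with the highest mean, counted at chr5:99955686-99962544, was the exception, with 336, 186 and 104 normalized counts in control and 138, 124 and 160 in M-Δx3,4. Several of the other 7 had identical counts in every library because their counted regions overlap, so these are not 7 separate measurements. In 7 of the 8 the counted region holds no base of an exon numbered 3 or 4, so these counts do not read the deletion itself.

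Ribosomal protein mRNAs are known for a 5′ terminal oligopyrimidine (TOP) tract, a C followed by a run of pyrimidines at the first base of the mRNA, through which their translation is tied to growth signalling. RefSeq start windows (GRCm38.p6) were matched for 63 of the 83 members. A C followed by at least 4 more pyrimidines (letters C or T, read on the gene's strand) stood exactly at the RefSeq start in 13 of them, or 20.6%, against 3.01% of 27025 genes. Within 5 bases either side of the start it stood in 29 members, or 46.0%, against 21.2% of all genes. The windows of members described below are printed from 10 bases before to 14 bases after the first base, with the tract in capitals, and Rpl24, whose window has no tract at the annotated start, is shown beside them.
Rps6, chr4:86857353-86857377, minus strand: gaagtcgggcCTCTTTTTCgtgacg
Rpl28, chr7:4792955-4792979, plus strand: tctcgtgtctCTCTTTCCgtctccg
Rpl38, chr11:114668570-114668594, plus strand: aagcctcgttCTTTCCCCgttctct
Rplp2, chr7:141447641-141447665, plus strand: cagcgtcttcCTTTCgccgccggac
Rps27, chr3:90213634-90213658, minus strand: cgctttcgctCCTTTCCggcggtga
Rpl15, chr14:18270972-18270996, minus strand: agaaagccttCTTCCTTTCCTCTgg
Rpl24, chr16:55966265-55966289, plus strand: gctgttgctaggaaacagactgggc
The median log2 fold change was -0.0067 over the 13 tested members with a tract at the start. It was 0.11 over the 47 tested members without one exactly at the start, some of which have one within 5 bases. These medians are a description of where RefSeq places the start, which can lie some bases from the start used in these cells.

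The ribosomal protein genes as a group differed little between control and M-Δx3,4 BMDMs. Each gene was represented by whichever of its transcripts had the most reads on average, and normalized counts are reads divided by a library size factor. The median log2 fold change (M-Δx3,4 against control) of the 80 tested members was 0.12, beside -0.006 over all genes tested. A positive value was seen in 52 of 80 members (65%), beside 49.5% of all genes tested. At an unadjusted p under 0.05 by edgeR's quasi-likelihood test, Rpl24 and Rpl37 were higher and Rpl28 was lower in M-Δx3,4. That is 2 of 80 higher (2.5%) beside a background of 1.45% of all genes, and 1 of 80 lower (1.25%) beside 2.53%. None passed the study's threshold, p under 0.05 together with a 2-fold difference or more, which 1.1% of all genes passed as higher and 1.96% as lower. After Benjamini-Hochberg adjustment in edgeR over 32475 transcripts no member was under 0.05 (lowest 0.984) and the background was 0%. By DESeq2 no member was under 0.05 after adjustment, and 4 transcripts of the whole table were.

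Precision set the size of difference that could be seen. The standard error (SE) of the log2 fold change ran from 0.28 to 0.50 with a median of 0.33. The 95% interval lay inside -1 to 1 for 45 members, so for these a change of 2-fold or more lay outside the interval, and it reached past 1 or -1 for the other 35.

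**Figure D1:**
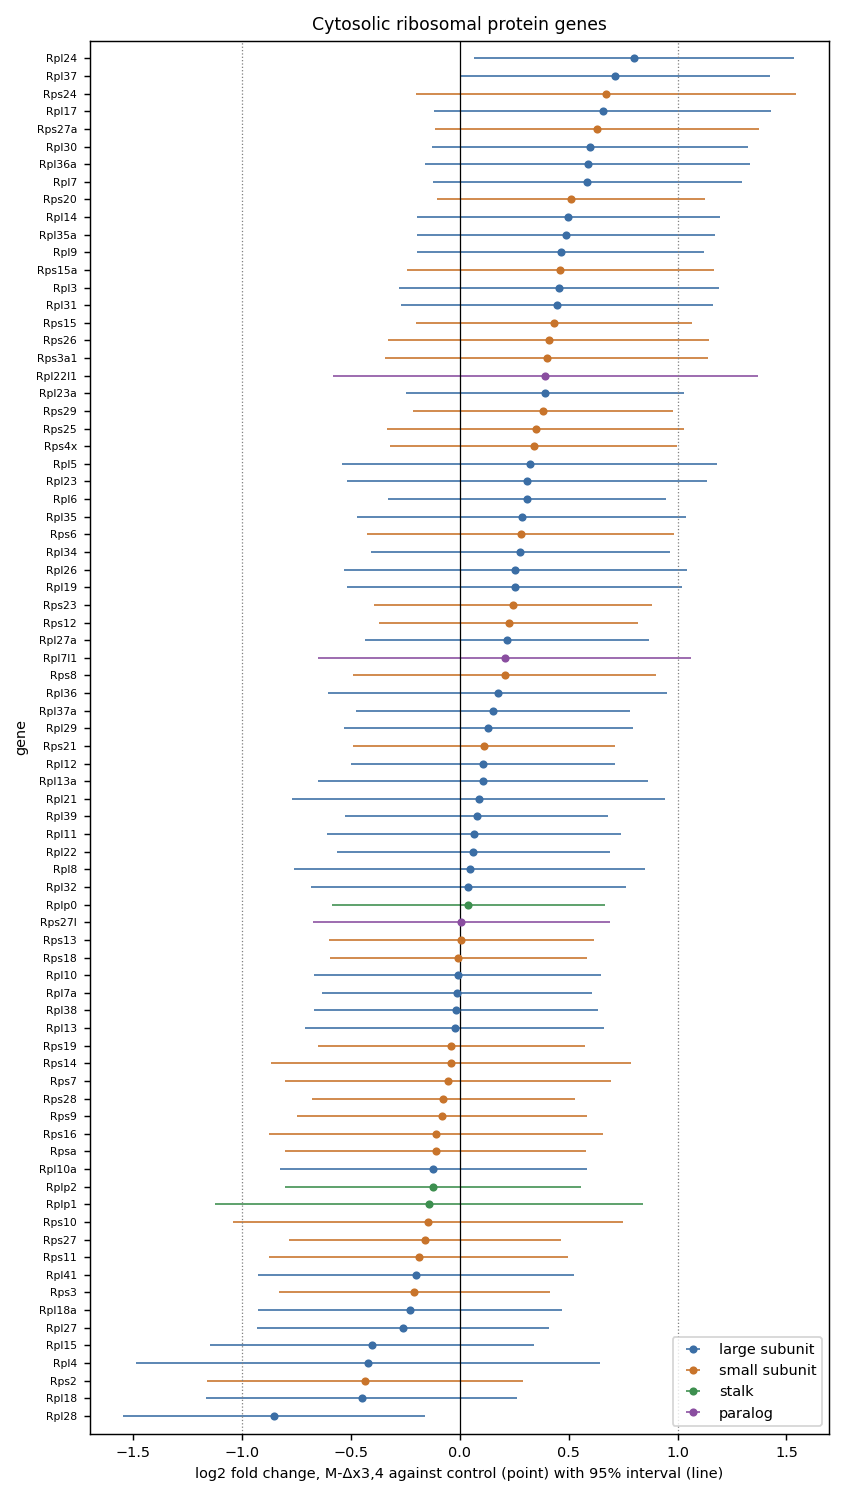
Log2 fold change of 78 of the 80 tested members, M-Δx3,4 against control, as points with 95% intervals as lines, coloured by class and ordered by value; dotted lines mark -1 and 1. The values run from -0.85 for Rpl28 to 0.80 for Rpl24, and 3 of the intervals leave out 0.

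The large-subunit members had a median log2 fold change of 0.15 (31 of 43 positive) and the small-subunit members one of 0.11 (17 of 31 positive). The lower and upper quartiles over all 80 tested members were -0.06 and 0.39, beside -0.38 and 0.34 over all genes tested.

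Rpl24, a protein of the large subunit, had the highest log2 fold change. Its 3′ end region at chr16:55971392-55971684 had 188, 218 and 122 normalized counts in control and 337, 347 and 237 in M-Δx3,4. Every M-Δx3,4 library was above every control library. The means were 176 ± 49.1 and 307 ± 60.9 (SD, n = 3 in each group), and the log2 fold change was 0.80 with an SE of 0.34 (unadjusted p = 0.034, adjusted p = 0.984 by edgeR). Rpl37, also a large-subunit protein, had 391, 438 and 332 normalized counts in control and 599, 438 and 865 in M-Δx3,4. The second library of each group was at the same level, so the groups overlapped. Its log2 fold change was 0.71 with an SE of 0.33 (unadjusted p = 0.049, adjusted p = 0.984 by edgeR), and its unadjusted p stayed under 0.05 in 9 of 16 alternative fits, against 13 for Rpl24.

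In 5 members all M-Δx3,4 libraries were above all control libraries, which is 6.25% of the 80 beside 4.19% of all genes tested. In 1 member, Rpl28, they were all below, which is 1.25% beside 4.25%. Besides Rpl24, they included Rpl9, Rps15 and Rpl23a. Rpl9 of the large subunit had 595, 628 and 435 normalized counts in control and 915, 698 and 676 in M-Δx3,4, a log2 fold change of 0.46 (SE 0.31). The groups of Rpl9 were close at their edges, with 628 as the highest control and 676 as the lowest M-Δx3,4 value. Rps15 of the small subunit had 854, 930 and 1143 in control and 1277, 1513 and 1161 in M-Δx3,4. Here the highest control and the lowest M-Δx3,4 library differed by less than the spread within either group. Rpl23a of the large subunit had 1430, 1430 and 991 in control and 1902, 1664 and 1486 in M-Δx3,4, and its counted region overlaps exons of Tlcd1 on the other strand. None of Rpl9, Rps15 and Rpl23a had an unadjusted p under 0.05.

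**Figure D2:**
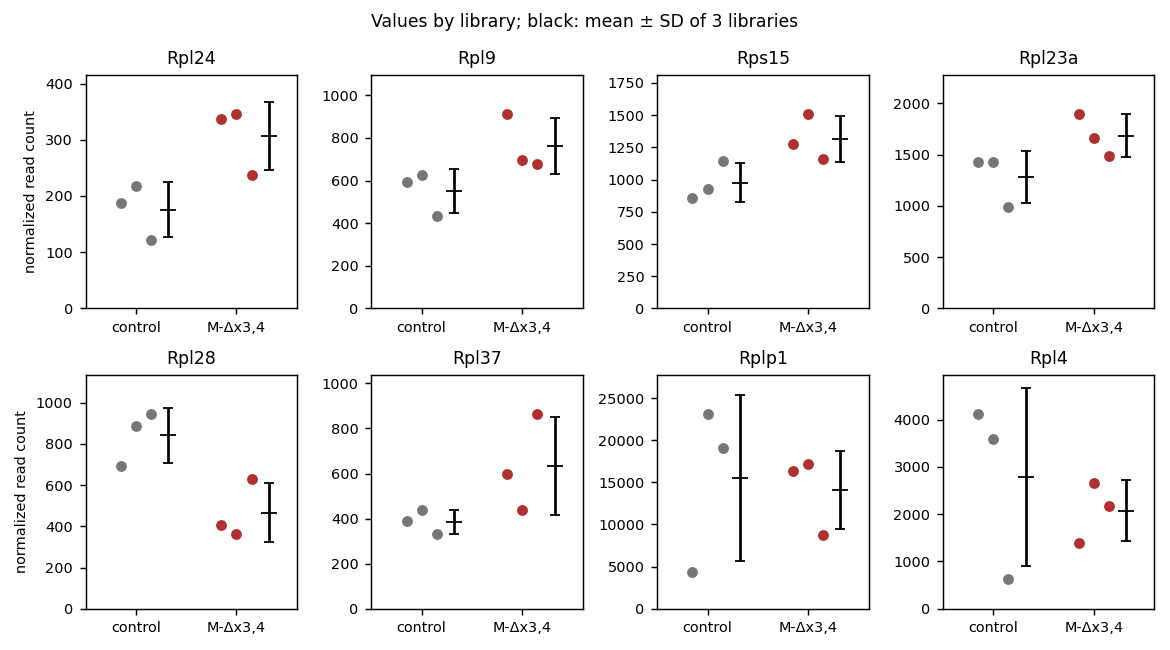
Normalized read counts of 8 members in each library (points; grey control, red M-Δx3,4) with the mean ± SD of 3 libraries in black, each axis starting at 0. The groups are apart in Rpl24, Rpl9, Rps15, Rpl23a and Rpl28, and overlap in Rpl37, Rpl4 and Rplp1; in Rplp1 control 1 lies at 4397 beside 23128 and 19124 in the other control libraries.

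Rpl28, a large-subunit protein, was the only member lower in every M-Δx3,4 library, and the direction depended on which stretch of the gene was counted. The transcript with the most reads is annotated as a retained-intron transcript, and 90.4% of its counted region (chr7:4793825-4794073) lies in an intron of the coding transcripts. This region had 692, 886 and 946 normalized counts in control and 407, 361 and 629 in M-Δx3,4, a log2 fold change of -0.85 with an SE of 0.32 (unadjusted p = 0.019, adjusted p = 0.984 by edgeR). The region at the end of the longest-reaching coding transcript (chr7:4794508-4795315) had 67.4, 246 and 130 in control and 245, 206 and 141 in M-Δx3,4. Here the groups overlapped and the log2 fold change was 0.41 with an SE of 0.43. Exons of Ube2s lie on the other strand of part of this end region, and whether strand was used in counting is not given in the sources used here. The other 3 counted regions of the gene share reads with that end and had log2 fold changes of 0.50, 0.52 and 0.52. The upstream region held 10.3, 3.60 and 7.28 times the normalized count of the end region in control and 1.66, 1.75 and 4.47 times in M-Δx3,4. The ratio in the third M-Δx3,4 library was above that of the second control library, so the ratios overlapped.

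**Figure D3:**
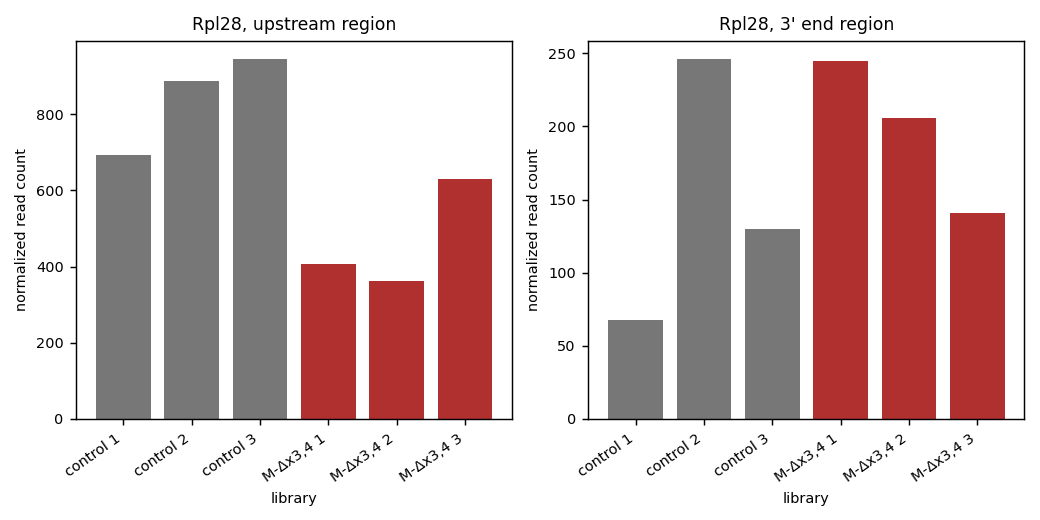
Normalized read counts of the upstream region of Rpl28 (left) and of the 3′ end region of its coding transcript (right) in each library, as bars from 0 (grey control, red M-Δx3,4), on separate scales. All 3 M-Δx3,4 bars are below the control bars on the left, and the groups overlap on the right.

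Of 74 members with at least 2 tested transcripts above 50 normalized counts, 58 had log2 fold changes within 0.3 of each other, and the median range was 0.11. Rpl28 had the widest range, 1.37, followed by Rpl6 with 0.99 and Rps6 with 0.90. Transcripts stood on both sides of 0 in 16 of the 74, and were beyond 0.2 on both sides in 3, Rpl28, Rps6 (-0.59 and 0.31) and Rpl26 (-0.24 and 0.26). Of the 83 members, 36 were represented by a transcript not typed as protein coding. Where the coding transcript with the highest mean stood for each gene instead, the median log2 fold change was 0.17, Rpl24 was the only member with an unadjusted p under 0.05, and Rpl28 had a log2 fold change of 0.50.

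The stalk proteins form the lateral arm of the large subunit that recruits translation factors. Rplp0 had 1175, 1700 and 1542 normalized counts in control and 1614, 1546 and 1383 in M-Δx3,4, with 95.6% of its counted region in an intron of the coding transcripts. Rplp1 had 4397, 23128 and 19124 in control and 16378, 17207 and 8738 in M-Δx3,4. The lowest and the highest value of Rplp1 were both in control libraries. Rplp2 had 2770, 4057 and 5450 in control and 3659, 4588 and 3034 in M-Δx3,4. The log2 fold changes of Rplp0, Rplp1 and Rplp2 were 0.04, -0.14 and -0.12, and the groups overlapped in all 3. Rpsa, the laminin-receptor protein of the small subunit, had 4053, 5737 and 8531 in control and 6329, 6289 and 4353 in M-Δx3,4, a log2 fold change of -0.11.

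Members with a known role in signalling or outside the ribosome were also within the spread between libraries. Rps6, the substrate of S6 kinase, had a log2 fold change of 0.28 (SE 0.33). Rpl5 and Rpl11, which bind Mdm2 when ribosome assembly is disturbed, had log2 fold changes of 0.32 (SE 0.40) and 0.06 (SE 0.32). For Rpl11, 79.1% of the counted region lies in an intron of the coding transcripts. Rpl13a is a protein of the GAIT complex, which restrains translation of inflammatory mRNAs in myeloid cells. It had 9165, 14811 and 5941 normalized counts in control and 8084, 14932 and 9212 in M-Δx3,4. The highest value was in the second library of each group, and the log2 fold change was 0.11 (SE 0.36). The counted regions of Rpl13a overlap exons of Gm45713 on the same strand. Rps3, which also associates with NF-κB, had a log2 fold change of -0.21 (SE 0.29), and Rps19, mutated in Diamond-Blackfan anaemia, one of -0.04 (SE 0.29). Rpl38, Rpl10a and Rps25, studied for their part in translating particular mRNAs, had -0.02, -0.12 and 0.35. On the other strand, the counted regions of Rpl5 and Rps25 overlap exons of Fam69a and Ccdc84. None of these 9 genes had an unadjusted p under 0.05.

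Among paralogs, Rpl22l1 had 101, 63.3 and 31.3 normalized counts in control and 101, 50.5 and 105 in M-Δx3,4. Its reads came to 11.7, 5.46 and 3.23 per 100 reads of Rpl22 in control and to 10.2, 4.35 and 10.7 in M-Δx3,4. Rps27l, a p53-responsive paralog, was the steadier of the pair, with 203, 157 and 207 in control and 190, 190 and 190 in M-Δx3,4, or 13.8 ± 2.36 reads per 100 of Rps27 in control and 15.3 ± 0.59 in M-Δx3,4 (SD, n = 3). Rpl7l1 came to 5.44 ± 3.53 reads per 100 of Rpl7 in control and 3.67 ± 0.73 in M-Δx3,4. The ratios overlapped between groups in all 3 pairs. For Rps27, 55.4% of the counted region lies in an intron of the coding transcripts, which enters its ratio. Of the genes these paralogs are named after, Rpl7 and Rpl3 had log2 fold changes of 0.59 (SE 0.33) and 0.46 (SE 0.34), and Rpl39, Rpl22, Rpl10 and Rps27 had 0.08, 0.06, -0.009 and -0.16. Rps4x, the X-linked gene of a small-subunit protein, had 0.34.

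On the authors' TPM scale, reads per length of the counted region scaled to a fixed sum per library, the mean of 6 libraries was highest for Rplp1 (3683, from 1178 to 5594), Rps12 (2689, from 2070 to 3449), Rps23 (2310, from 1497 to 3155) and Rps27a (1960, from 770 to 2670). It was lowest for Rps27l (33.0), Rpl22l1 (9.65) and Rpl7l1 (1.89), and the median member was at 313. In 77 of 79 neighbouring pairs of this order the ranges over 6 libraries overlapped, so most neighbours were not apart. The exceptions were Rps27l with Rpl22l1 and Rpl22l1 with Rpl7l1. Region length enters this unit, and the counted regions of some members extend over introns.

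Together the members took 5.49%, 7.44% and 5.93% of the counts in control (1 transcript per gene) and 6.92%, 7.54% and 5.94% in M-Δx3,4. The means were 6.28% ± 1.02 and 6.80% ± 0.81 (SD, n = 3), and the groups overlapped. Reads from the many processed pseudogenes of this family cannot be told apart from those of the parent where the sequence is shared: 60 of the 83 members have at least 1 pseudogene named after them. Pseudogenes named after ribosomal protein genes held 81330, 117866 and 95111 counts in control and 116242, 120929 and 129462 in M-Δx3,4. The members held 137344, 213193 and 148844 in control and 198429, 230014 and 228529 in M-Δx3,4. Which gene the pseudogene counts came from was not tested.

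Control libraries differed among themselves more than M-Δx3,4 libraries did. The SD of log2 normalized counts within control had a median of 0.47 over the members and within M-Δx3,4 of 0.25, and was larger within control for 64 of 80 members (80%). Over the 4723 genes averaging more than 50 normalized counts it was larger within control for 72.8%. The median SDs over those genes were 0.48 within control and 0.31 within M-Δx3,4. The highest and lowest control library were over 2-fold apart for 33 members, against 4 members within M-Δx3,4. Control 3 was the lowest of the 6 libraries for 36 members and control 1 for 30, together 82.5% of the members, beside 53.2% of all genes above 50 normalized counts. Rpl4 had 4121, 3582 and 628 normalized counts in control and 1394, 2666 and 2167 in M-Δx3,4, and Rps24 had 1714, 996 and 421 in control and 1525, 1897 and 1565 in M-Δx3,4. In both, control 3 was the lowest and control 1 among the high libraries. Rplp1 ran the other way, with control 1 as the lowest. Rpl15 of the large subunit had 525, 828 and 1225 normalized counts in control and 800, 545 and 606 in M-Δx3,4, with control 1 as the lowest and control 3 as the highest library and a log2 fold change of -0.40 (SE 0.35).

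**Figure D4:**
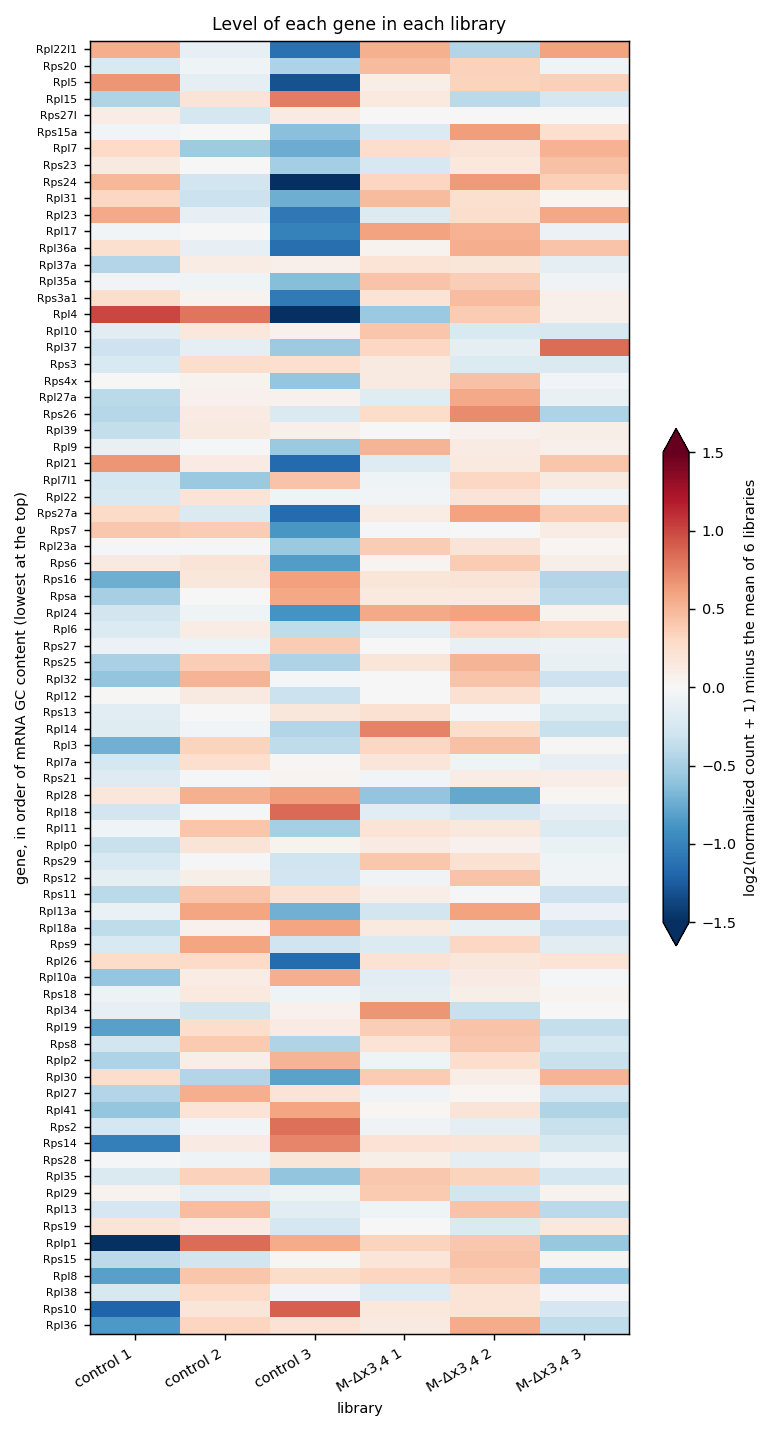
Each of 78 tested members in each library, as log2(normalized count + 1) minus the mean of the 6 libraries (colour, red above and blue below), with genes from low GC content at the top to high at the bottom. Control 3 is blue for many genes at the top, and control 1 for many at the bottom; over all tested members, control 3 was the lowest library for 18 of the 27 with the lowest GC and control 1 for 13 of the 27 with the highest.

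The difference between the control libraries went with the GC content of the mRNA. Control 3 minus control 1 on the log2 scale ran from -2.71 for Rpl4 to 2.12 for Rplp1. Its Spearman correlation with GC was 0.49 over the 80 members. It was 0.63 over the 4115 genes that averaged more than 50 normalized counts and had a principal coding transcript in the annotation. These are correlations across genes of the same libraries, given as a description. In the 27 members with the lowest GC (40.6% to 49.2%) the median deviation from the 6-library mean was -0.58 in control 3 and -0.04 in control 1. In the 27 with the highest GC (53.6% to 60.8%) it was 0.12 in control 3 and -0.28 in control 1. The log2 fold change between the groups also went with GC, with a Spearman correlation of -0.42 over the members and -0.51 over the 4115 genes. The median log2 fold change was 0.34 in the 27 lowest, 0.09 in the 26 middle and -0.02 in the 27 highest. With each library's GC trend removed, 62 of 80 members had a positive log2 fold change, against 52 without this step. The median of the members was then 0.17, beside -0.0098 over all genes tested.

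**Figure D5:**
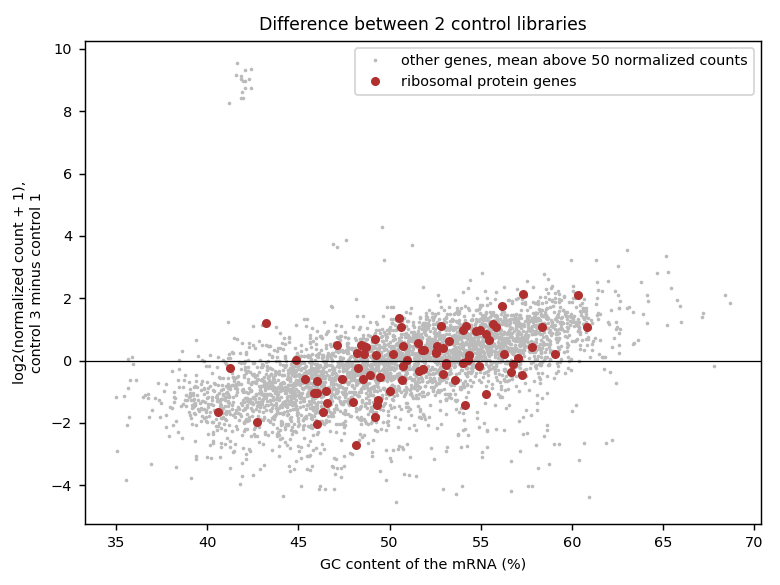
GC content of the mRNA (horizontal, %) against control 3 minus control 1 in log2(normalized count + 1) (vertical), for ribosomal protein genes (red) and other genes (grey). Grey genes averaged more than 50 normalized counts and had a principal coding transcript. Red and grey points both run from lower left to upper right, with Spearman correlations of 0.49 for the members and 0.63 for all 4115 such genes.

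Single libraries decided which members were called. Without control 1, 11 members (13.8%) were higher and 3 (3.75%) lower at an unadjusted p under 0.05, among them Rps24 with a log2 fold change of 1.23, Rpl7 with 0.97 and Rps27a with 1.00. Calls were more frequent over the whole table in this fit too, at 9.61% of genes as higher and 6.41% as lower. Without control 3, none was higher and 2 were lower, Rpl4 (-0.88) and Rpl28 (-0.75), beside 1.13% and 1.46% of genes. Without M-Δx3,4 1 there were none in either direction, beside 0.855% and 1.94% of genes. With each library's GC trend removed, 5 were higher (among them Rpl24, Rpl37, Rps15 and Rps20) and 1 lower (Rpl28), beside 1.81% and 2.74% of genes. No member had an adjusted p under 0.05 by edgeR in any of these fits, while 55 transcripts of the whole table did without control 1 and 0 did in the other 3.

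Members differed from most genes in the length of their 3′ UTR and in AU-rich pentamers, the sequence element AUF1 is known for. The median 3′ UTR was 89.5 bases over the 80 tested members. It was 999 over the 4115 genes above 50 normalized counts with a principal coding transcript. The pentamer AUUUA stood in the 3′ UTR of 15 members (18.8%), against 65.9% of those genes and 16.3% of the 491 among them with a 3′ UTR of at most 200 bases. The median log2 fold change was 0.11 over the 15 members with the pentamer and 0.13 over the 65 without it.

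Genes of related function were read in the same fit. Other TOP mRNAs and ribosomal proteins outside the name pattern, such as elongation factors, were listed by 21 symbols. Rack1 was listed under its older symbol Gnb2l1 as well. Of the symbols, 20 were tested, with a median log2 fold change of 0.15. None had an unadjusted p under 0.05, where the background was 1.45% of all genes as higher and 2.53% as lower. In 3 of the 20 (15%) every M-Δx3,4 library was above the control libraries and in 0 below, beside 4.19% and 4.25% of all genes. Pabpc1, the poly(A)-binding protein, had 339, 308 and 352 normalized counts in control and 511, 466 and 553 in M-Δx3,4, with every M-Δx3,4 library above the control libraries and a log2 fold change of 0.62 (SE 0.30). Tpt1, encoding the translationally controlled tumour protein, had 4919, 2807 and 2353 in control and 5361, 4985 and 5291 in M-Δx3,4, a log2 fold change of 0.63 (SE 0.32). All 48 ribosome assembly factors were tested and had a median of -0.08, with none at an unadjusted p under 0.05. Of these, 21 had a positive and 27 a negative log2 fold change. Their groups did not overlap in 1 as higher (2.08%) and in 2 as lower (4.17%). Gar1, of the pseudouridylation complexes, had -0.62 (SE 0.34), and Nolc1, a nucleolar chaperone of such complexes, had 0.79 (SE 0.43). Of 78 mitochondrial ribosomal protein genes, 77 were tested, with a median of -0.04 and none at an unadjusted p under 0.05. The groups did not overlap in 3 of the 77 as higher (3.90%) and in 2 as lower (2.60%), beside 4.19% and 4.25% of all genes. Mrpl32 had 19.8, 5.11 and 2.32 normalized counts in control and 39.1, 11.7 and 19.9 in M-Δx3,4, a log2 fold change of 1.37 (SE 0.69) with overlapping groups. Mrpl20 had 467, 444 and 484 in control and 324, 343 and 320 in M-Δx3,4, so that the groups did not overlap, with a log2 fold change of -0.50 (SE 0.30).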

How the data were processed

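BMDM libraries of 3 control and 3 M-Δx3,4 samples were read by 3′ mRNA sequencing on an Ion Proton after 14 PCR cycles. Per the labels and methods, the authors mapped reads to mm10 (TopHat2 2.1.1, then Bowtie2) and deposited raw counts per 3′ UTR region of Ensembl 90 transcripts, described as extended by 500 bases. They also deposited TPM values, and columns of their own comparison (fold changes and p-values from 7 combined methods), which were not used, nor were 18 further columns of per-sample values.

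Regions were summed per transcript. Transcripts above the median normalized count (4.89) in at least 1 library were tested with edgeR 4.0.16 (quasi-likelihood, RLE factors, Benjamini-Hochberg over 32475 transcripts, R 4.3.3). The SE was taken from the fold change and its F statistic. Gene types, introns, GC content and 3′ UTRs came from GENCODE vM21 (GRCm38). The fit was tested on simulated data. Alternatives were TMM, library totals, RLE without the members, DESeq2 1.42.0, other filters, 1 transcript per gene, a replicate block and leaving out each library; the GC correction (lowess, span 0.3) and the coding transcripts were added after the data were seen. Members and lists were chosen with earlier results of these data known. Named members were the stalk genes and Rpsa, paralog pairs, 9 genes with roles in signalling or outside the ribosome, the 10 smallest p, the 5 largest and 5 smallest fold changes, the 5 highest means and those whose groups do not overlap. Values of 2 tested members are not reported here by name. Without molecular identifiers, reads are not independent molecules.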

Additional observations from a re-analysis of the deposited data

How the results depend on the processing

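The median log2 fold change of the members stayed positive in all 16 alternatives, from 0.06 to 0.27, and no member had an adjusted p under 0.05 in any of them. Among all transcripts tested, 55 had one without control replicate 1, 118 with no filter and 4 by DESeq2. The count of 2 higher members at an unadjusted p under 0.05 became 1 with 1 transcript per gene, 5 with the GC trend removed and 1 with coding transcripts, and ran from 0 to 11 on leaving out each library. The share of all genes called higher was 1.29%, 1.81% and 1.45% in the first 3 and ran from 0.803% to 9.61% on leaving out each library, with 11 and 9.61% both without control replicate 1. The count of 1 lower member became 0 with coding transcripts, beside 2.53% of all genes. It ran from 0 to 3 on leaving out each library, beside 1.46% to 6.41% of all genes, with 3 and 6.41% both without control replicate 1. Members past the threshold of p and fold change ran from 0 to 1 in each direction on leaving out each library. The higher one was Rps24 without control replicate 1, where 9.61% of all genes were higher at an unadjusted p under 0.05. The lower one was Rpl28 without M-Δx3,4 replicate 3, where 1.54% of all genes were lower at that p. With all 6 libraries, 1.1% of all genes passed the threshold as higher and 1.96% as lower. The share passing it with 1 library left out is not given here. In the fits of all 6 libraries, 4 to 6 members did not overlap as higher, beside 3.25% to 4.56% of all genes. With 1 library left out, where 5 values separate more easily, 7 to 15 did as higher and 1 to 11 as lower, beside 7.43% to 18.3% and 7.72% to 14.5% of all genes. The lower count became 0 with coding transcripts, beside 4.25% of all genes. The cause was not tested.

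Same-numbered libraries did not deviate together as a rule, with correlations of -0.21, 0.54 and -0.31 for numbers 1, 2 and 3. Correlations between libraries of different numbers ran from -0.40 to 0.54, so the numbers were not taken as pairs. With the replicate block 3 members were higher and 1 lower, beside 1.19% and 1.63% of all genes, with a median of 0.16. Rpl37 was no longer called, Rps24 (0.88) and Rps27a (0.73) were, and Rplp1 had a log2 fold change of 0.065.

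Of 43 named members, 26 kept their sign in every alternative. Rpl28 changed to 0.50 with coding transcripts. With the GC trend removed, Rplp1 changed to 0.17, Rpsa to 0.087, Rpl22 to -0.00068, Rps27l to -0.42, Rpl39 to -0.026, Rps19 to 0.10, Rpl38 to 0.12, Rpl10a to 0.16 and Rps9 to 0.064. Rps27l changed to -0.021 with 1 transcript per gene, Rpl10 to 0.0030 with TMM and 0.022 with library totals, and Rpl38 to 0.0030 with library totals. On leaving out each library, sign changes gave ranges of -0.097 to 0.16 for Rplp0, -0.58 to 0.26 for Rplp1, -0.34 to 0.15 for Rplp2, -0.33 to 0.22 for Rpsa, -0.030 to 0.19 for Rpl22, -0.24 to 0.023 for Rps27, -0.11 to 0.088 for Rps27l, -0.26 to 0.10 for Rpl10, -0.061 to 0.17 for Rpl39, -0.21 to 0.51 for Rpl13a, -0.036 to 0.88 for Rpl5, -0.12 to 0.33 for Rpl11, -0.15 to 0.054 for Rps19, -0.13 to 0.14 for Rpl38, -0.37 to 0.18 for Rpl10a and -0.27 to 0.26 for Rps9.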
